A study of Mus musculus with 4 samples.

Results

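The 8 genes described here, Prdm1, Dazl, Ddx4, Mael, Piwil2, Tdrd1, Sycp3 and Tex101, act in germ cells, and each was examined in mouse embryonic stem (ES) cells with and without Snai1. They were taken by name: all probe sets that the array's annotation maps to exactly 1 gene, that gene being on this list, were used. This gave 9 probe sets, 1 for each of 7 genes and 2 for Dazl, of 34945 probe sets with 1 gene symbol for 18193 genes in all. Total RNA from 2 samples of Snai1 knockout ES cells (titles KO.ES) and 2 samples of control ES cells (titles F/F.ES) was labelled from the 3' end of the RNA and hybridised to 1 Affymetrix array per sample. Both groups were cultured without further treatment on feeder cells with leukaemia inhibitory factor (LIF), a cytokine that keeps ES cells undifferentiated. Snai1 encodes Snail, a zinc finger repressor best known for silencing epithelial genes. The labels do not explain F/F, the source name of the control samples also holds the words knock out although their genotype reads control, and neither clones, passage nor what separates the replicates is stated, so each p-value covers only the spread among these samples, which may be technical.

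In the mouse embryo, germ cells are set aside from the epiblast when Prdm1, also called Blimp1, represses the somatic programme. Later germ cells switch on RNA-binding proteins such as Dazl and Ddx4, the components of the synaptonemal complex that pairs chromosomes in meiosis, and the piRNA pathway, in which small RNAs bound to Piwi proteins silence transposons. Many of these genes have CpG-rich promoters that are held silent in somatic cells by DNA methylation, and in ES cells also by repressor complexes that contain Max, Mga and E2f6. ES cells derive from the early embryo and can transcribe some germ line genes without being germ cells.

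RefSeq promoter windows of 300 bases (250 before to 50 after the start, assembly GRCm38.p6) were found for 7 of the 8 genes. Piwil2 had no entry. They were searched on both strands for the E-box that Snail is known to bind, which is spelled CACCTG on one strand and on the opposite strand reads CAGGTG, for the E-box bound by Max, which is CACGTG on either strand, and for an E2F-type motif, which is spelled GGCGGGAA. None of these motifs overlapped another in the windows shown. The windows of Mael, Prdm1, Ddx4 and Sycp3 are shown as examples. Mael was the gene past the threshold, Prdm1 and Ddx4 were lower in both knockout arrays than in both control arrays, and Sycp3 was not. The windows of Dazl, Tdrd1 and Tex101 are not shown, although the brighter Dazl probe set was also lower in both knockout arrays. Those of Dazl and Tex101 held none of the motifs. Capitals mark the motif matches and every sequence is written 5' to 3' on the gene's strand.
Mael, chr1:166238695-166238994, - strand: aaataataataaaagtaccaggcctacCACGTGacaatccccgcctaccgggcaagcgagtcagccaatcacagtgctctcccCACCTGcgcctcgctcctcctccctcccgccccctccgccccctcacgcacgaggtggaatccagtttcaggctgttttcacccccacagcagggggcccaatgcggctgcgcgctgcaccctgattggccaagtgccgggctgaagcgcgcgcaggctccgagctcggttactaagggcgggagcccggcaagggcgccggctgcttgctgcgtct
Prdm1, chr10:44458699-44458998, - strand: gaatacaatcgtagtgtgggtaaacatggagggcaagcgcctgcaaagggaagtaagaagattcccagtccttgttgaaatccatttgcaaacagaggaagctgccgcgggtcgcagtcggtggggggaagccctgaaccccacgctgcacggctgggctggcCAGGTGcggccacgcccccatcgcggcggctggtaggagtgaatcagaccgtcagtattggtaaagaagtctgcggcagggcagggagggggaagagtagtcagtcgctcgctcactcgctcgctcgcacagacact
Ddx4, chr13:112652261-112652560, - strand: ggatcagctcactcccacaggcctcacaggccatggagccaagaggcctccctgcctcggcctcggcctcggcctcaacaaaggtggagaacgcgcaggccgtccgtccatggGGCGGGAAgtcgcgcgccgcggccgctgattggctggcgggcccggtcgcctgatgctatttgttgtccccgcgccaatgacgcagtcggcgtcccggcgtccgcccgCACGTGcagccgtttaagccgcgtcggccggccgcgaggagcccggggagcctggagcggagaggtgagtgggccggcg
Sycp3, chr10:88459337-88459636, + strand: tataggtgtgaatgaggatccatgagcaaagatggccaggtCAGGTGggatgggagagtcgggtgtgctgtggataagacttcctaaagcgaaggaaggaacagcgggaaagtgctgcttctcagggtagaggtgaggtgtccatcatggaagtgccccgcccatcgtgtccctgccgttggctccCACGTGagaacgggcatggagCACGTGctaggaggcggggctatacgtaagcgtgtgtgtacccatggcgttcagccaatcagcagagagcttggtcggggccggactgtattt

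CACCTG was found 167 bases before the start of Mael and, as CAGGTG, 87 bases before that of Prdm1 and 209 bases before that of Sycp3. It was also found before the most upstream start of Tdrd1, at 81 bases, and it was not in the windows of Ddx4, Dazl and Tex101. Thus 4 of the 7 genes had this motif in at least 1 window, and 20.2% of 32841 RefSeq promoter windows of the same length hold it. Genes and windows are unlike units. The windows of these genes also held 57.0 to 72.0% G and C, except 45.0% at the most downstream Tdrd1 start, against a median of 52.7% over all windows. The share among windows of like base content was not tested. CACGTG stood 223 bases before the start of Mael, 29 before that of Ddx4, 11 before the most upstream start of Tdrd1 and 64 and 43 before that of Sycp3, and 7.15% of all windows hold it. GGCGGGAA stood 137 bases before the start of Ddx4, and 2.19% of all windows hold it. Tdrd1 had 3 annotated starts and the other genes 1 each, 9 windows in all. Of CpG dinucleotides Ddx4 had 38, Dazl 28, Mael 24, Prdm1 20, Tex101 19 and Sycp3 15, against a median of 7 over all windows. The windows of Tdrd1 had 20, 25 and 3, the last, at its most downstream start, below that median. These matches describe the sequence only, since binding to these promoters was not measured.

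The targeted gene and the state of the arrays were read before the comparison. The values are log2 expression values as deposited, with array medians of 4.91 to 4.95. Snai1 read 3.79 and 4.04 on the knockout arrays, against 4.41 and 4.69 on the control arrays, a difference of -0.63 ± 0.16 (standard error, SE; limma adjusted p = 0.0692). All of these values lay within the background range, 2.91 to 4.77, spanned by 27 control probe sets for Bacillus transcripts, so the level of Snai1 does not by itself check the labels. The 10 markers of undifferentiated ES cells that were measured lay above background on all 4 arrays. For Actb, whose control probe sets lie at both ends of the transcript, the 3' set exceeded the 5' set by 1.11 and 0.80 (log2) in the knockout arrays and by 3.02 and 2.97 in the control arrays. For Gapdh the same gap was 0.40 and 0.27 on the knockout arrays, against 1.24 and 1.48 on the control arrays. This gap, a sign of RNA quality or labelling, moved with the groups, so every difference below is aligned with it. The part of the gap in any of these differences was not tested.

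Of the 8 genes, Mael alone fell and none rose in the knockout at an adjusted p of 0.05 (limma, Benjamini-Hochberg over all 18193 genes). Over all genes 4.14% passed, 2.17% lower and 1.98% higher. A further 4 genes, with Dazl counted by its brighter probe set, were lower in both knockout arrays than in both control arrays without passing. The remaining 3 overlapped between the groups. Groups that did not overlap were common: they were found for 52.3% of all genes, with the knockout lower for 29.2% and higher for 23.1%. An unadjusted p under 0.05 was found for 23.9% of all genes. The median difference of the 8 genes, knockout minus control, was -0.48, and that of all genes was -0.02. The median of the 8 counts Dazl at -0.77 by its brighter probe set. Its other probe set differed by 0.62, and with that set the median would be less negative. With 2 arrays per group the error of each gene rested on 2 residual and 5.31 prior degrees of freedom, and the number of arrays limits the precision.

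**Figure D1:**
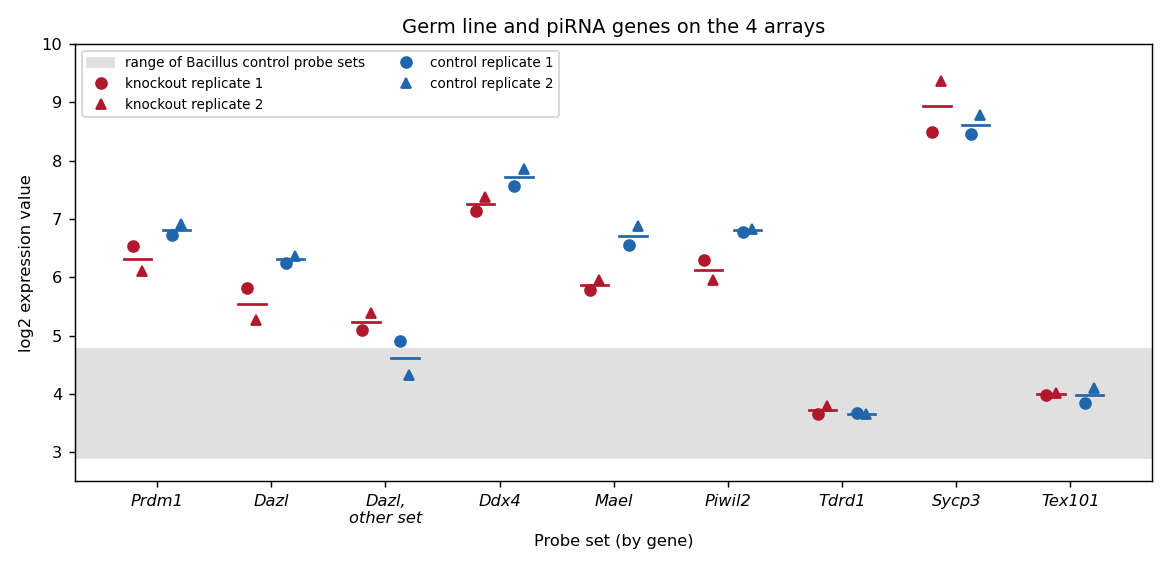
Log2 expression values (vertical axis) of the 9 probe sets on each array, knockout in red to the left of control in blue, with circles for replicate 1, triangles for replicate 2, short lines for group means and a grey band for the background range (2.91 to 4.77). Mael, the brighter Dazl probe set, Piwil2, Prdm1 and Ddx4 lie lower on both knockout arrays, the other Dazl probe set lies higher, and Tdrd1 and Tex101 lie inside the grey band on all 4 arrays.

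Prdm1, the transcriptional repressor that specifies primordial germ cells, read 6.53 and 6.11 on the knockout arrays, against 6.72 and 6.92 on the control arrays. Both knockout values were lower than both control values, but the nearest arrays of the groups were only 0.19 apart, less than the 0.42 between the knockout arrays themselves. The difference was -0.50 ± 0.18 (SE), with a 95% interval (here and below not adjusted for the number of genes) of -0.91 to -0.08, and did not pass (limma adjusted p = 0.142). It was -0.29 without knockout replicate 2 and -0.33 after each array's trend with gene span was removed. Prdm1 is also transcribed in extraembryonic endoderm, trophoblast and plasma cells, and a bulk sample cannot tell fewer cells of a type from less RNA per cell. Of 12 measured markers of those lineages none passed in either direction with limma, and 2 had an unadjusted p under 0.05, against 23.9% of all genes. The median difference was -0.02, and Gata3, Irf4 and Sox7 lay within the background range on all 4 arrays. The summed level of these 12 markers, on the linear scale, was 2324 to 2351 in the knockout and 2638 to 2652 in the control. Their part in the difference of Prdm1 was not tested.

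Dazl, an RNA-binding regulator of translation that germ cells need to enter meiosis, was measured by 2 probe sets whose differences had opposite signs. The brighter read 5.81 and 5.26 on the knockout arrays, against 6.25 and 6.36 on the control arrays, all above background. Its difference was -0.77 ± 0.20 (SE), with a 95% interval of -1.23 to -0.31, and did not pass (limma adjusted p = 0.0686). It was -0.49 without knockout replicate 2. The dimmer was at 5.09 and 5.38 on the knockout arrays, against 4.91 and 4.33 on the control arrays, with 1 control array inside the background range. It was higher in both knockout arrays, by 0.62 ± 0.22 (SE), and did not pass among all probe sets tested singly (limma adjusted p = 0.183), where 0.79% of 34945 passed. The annotation maps both to Dazl and names the same transcript record for both. The mean of the 2 probe sets differed by -0.08, so no single direction is given for Dazl.

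Ddx4, the mouse homologue of the fly helicase Vasa and a component of the germ granules in which piRNAs are made, read 7.14 and 7.38 on the knockout arrays, against 7.57 and 7.86 on the control arrays. The nearest arrays of the groups were 0.19 apart, less than the spread of 0.24 between the knockout arrays. The difference was -0.45 ± 0.16 (SE), with a 95% interval of -0.83 to -0.07, and did not pass (limma adjusted p = 0.145). After each array's trend with gene span was removed it was -0.27.

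Mael, which encodes maelstrom, a germ granule protein needed for transposon silencing in the mouse testis, was the member that fell. Its probe set read 5.78 and 5.95 on the knockout arrays, against 6.55 and 6.88 on the control arrays. All 4 values lay above background, and the highest knockout value stood 0.60 below the lowest control value, more than the 0.17 between the knockout arrays and the 0.33 between the control arrays. The knockout averaged 5.87 ± 0.12 and the control averaged 6.71 ± 0.24 (SD, n = 2 each). The difference of -0.85 ± 0.16 (SE) corresponds to a level 1.80-fold lower in the knockout, with a 95% interval of -1.23 to -0.47 on the log2 scale and a limma adjusted p of 0.0430. Of all genes, 0.874% had a more negative difference. With any 1 array left out Mael differed by -1.01 to -0.68. Such a fit leaves 1 array in a group, so it does not show whether the call depends on any single array. Mael did not pass when every probe set was tested singly (limma adjusted p = 0.0627).

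The genes whose pattern over the 4 arrays was nearest to that of Mael were Zbed5, Kyat3, a kynurenine aminotransferase, and Slc35a1, the CMP-sialic acid transporter of the Golgi. Nearness was the Euclidean distance between values taken as deviations from each gene's own mean, among 12403 genes whose mean lay above background. The distances were 0.014 for Zbed5, 0.046 for Kyat3 and 0.057 for Slc35a1. Over 4 arrays such nearness is common, with 92 genes closer than 0.2, and it describes the values only.

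Piwil2, also called Mili, is a Piwi protein that binds piRNAs in male germ cells. It read 6.29 and 5.94 on the knockout arrays, against 6.77 and 6.83 on the control arrays. The knockout values were lower by 0.48 at the nearest, which exceeds the spread of 0.34 between the knockout arrays and of 0.06 between the control arrays. The difference was -0.69 ± 0.16 (SE), with a 95% interval of -1.06 to -0.31, and did not pass (limma adjusted p = 0.0565). It was -0.51 without knockout replicate 2 and -0.54 after each array's trend with gene span was removed. With every probe set tested singly Piwil2 also did not pass (limma adjusted p = 0.0811).

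Tdrd1, a Tudor domain protein that binds Piwil2 in germ granules, read 3.66 and 3.79 on the knockout arrays, against 3.67 and 3.66 on the control arrays. All 4 values lay within the background range, so neither a level nor a fold is given for this partner of Piwil2. Tex101, a surface protein of male germ cells needed for sperm to reach the oviduct, read 3.97 and 4.02 on the knockout arrays, against 3.85 and 4.10 on the control arrays, again within the background range throughout.

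Sycp3, a structural protein of the lateral element of the synaptonemal complex, was well above background, at 8.50 and 9.37 on the knockout arrays, against 8.45 and 8.79 on the control arrays. Its groups overlapped, and the 0.87 between the knockout arrays exceeded the difference of 0.32 ± 0.28 (SE) between the groups, whose 95% interval was -0.33 to 0.96 (limma adjusted p = 0.568). The sign turned to -0.12 without knockout replicate 2. Sycp3 had the widest spread between the knockout arrays of the 8 genes.

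The replicates did not order the genes alike. Between the knockout arrays, Prdm1, the brighter Dazl probe set and Piwil2 were higher on replicate 1, by 0.42, 0.56 and 0.34, whereas Mael, Ddx4 and Sycp3 were lower on it. Fibroblasts are the usual feeder cells, and of 17 fibroblast markers none passed (limma, 2 with an unadjusted p under 0.05, against 23.9% of all genes). The median difference of these markers was -0.32. Their mean log2 level was 7.20 and 6.53 in knockout replicates 1 and 2, against 7.49 and 6.85 in control replicates 1 and 2. It was lower in the knockout at each number, but the groups overlapped. Their level was also summed on the linear scale, to which the brightest genes add most. The sums were 5130 and 3839 in knockout replicates 1 and 2, against 6070 and 3744 in control replicates 1 and 2. By this sum the knockout was lower at number 1 and higher at number 2. Of the 17 markers, 14 were higher on replicate 1 than on replicate 2 in the knockout and 16 in the control. Fap lay within the background range on all 4 arrays. Markers of gonadal somatic cells gave no call either among 14 measured (limma, 1 with an unadjusted p under 0.05, against 23.9% of all genes, median difference -0.07). Their summed level was 2172 to 3512 in the knockout and 1974 to 2899 in the control, with Inha, Cldn11, Hsd3b1 and Lhx9 within the background range on all 4 arrays. The part of feeder or gonadal cells in the differences of the 8 genes was not tested.

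**Figure D2:**
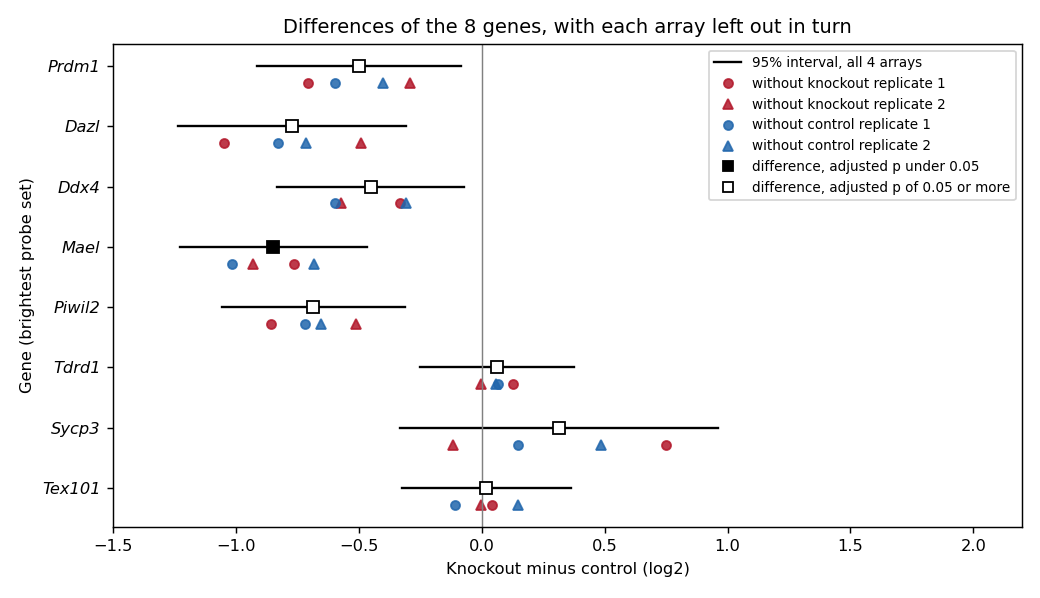
Knockout minus control (log2, horizontal axis) for the brightest probe set of each gene, with its 95% interval from all 4 arrays and, just under it, the difference with each array left out in turn. Mael, filled, is the gene past the threshold at -0.85. The leave-one-out values of Prdm1, Dazl, Ddx4, Mael and Piwil2 all stay below 0, as they must where both knockout arrays lie below both control arrays. Those of Sycp3 range from -0.12 to 0.75, and Tdrd1 and Tex101 lie near 0 within background.

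Other germ line genes were read from 7 lists, which also hold 19 measured repressors of such genes and 7 genes known to act with or under Prdm1. Together the lists held 110 measured genes that are not among the 8. Of these, 5 rose in the knockout and none fell (limma adjusted p under 0.05 over all genes), against 1.98% higher and 2.17% lower over all genes, and their median difference was -0.01. With any 1 array left out Ifitm3 differed by 1.33 to 1.65, Lin28a by 1.25 to 1.44 and Pou5f1 by 0.80 to 0.90. Prmt5 differed by 0.72 to 1.04 and Dppa3 by 0.61 to 0.94. Such fits leave 1 array in a group, so they do not show whether a call depends on any single array.

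The rises lay in the list of early germ cell factors, of which 4 of 10 measured rose with a list median of 0.33, and in a short list of genes known to act with or under Prdm1, of which 1 of 7 rose with a list median of 0.06. Ifitm3, also called fragilis, an interferon-induced membrane protein that marks early germ cells, read 11.76 and 12.08 on the knockout arrays, against 10.32 and 10.55 on the control arrays, a difference of 1.49 ± 0.17 (SE; limma adjusted p = 0.0186). Lin28a, an RNA-binding protein that blocks let-7 maturation, read 11.68 and 11.49 on the knockout arrays, against 10.22 and 10.26 on the control arrays, a difference of 1.34 ± 0.14 (SE; limma adjusted p = 0.0162). Its other probe set differed by 0.22 and did not pass, and with both averaged Lin28a differed by 0.78 and no longer passed (limma adjusted p = 0.0575). Pou5f1, which encodes Oct4, rose by 0.85 and Dppa3, also called Stella and named here after its values were seen, by 0.78. Pou5f1, Lin28a and Dppa3 are as typical of undifferentiated ES cells as of early germ cells, and Pou5f1 is also on the list of ES cell markers. Of that list 4 of 10 rose, against 1.98% of all genes, with a list median of 0.08 and differences down to -0.38. When every probe set was tested singly neither Pou5f1 (limma adjusted p = 0.0519) nor Dppa3 (0.0662) passed. Dppa3 also did not pass with probe sets averaged (limma adjusted p = 0.0538) or after the gene span trend was removed, where it differed by 0.56 (0.0826).

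Prmt5, an arginine methyltransferase that partners Prdm1 in germ cells, read 10.51 and 10.18 on the knockout arrays, against 9.44 and 9.49 on the control arrays. It rose by 0.88 ± 0.16 (SE; limma adjusted p = 0.0387), while Prdm1 itself lay lower in both knockout arrays. When every probe set was tested singly Prmt5 did not pass (limma adjusted p = 0.0572).

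Among 19 other piRNA pathway genes none passed (limma, 1 with an unadjusted p under 0.05, against 23.9% of all genes), and the median difference was -0.01. In this list 4 of 19 genes were lower in both knockout arrays than in both control arrays and 1 was higher, against 29.2% and 23.1% of all genes. Rnf17, a Tudor domain protein of male germ cells, had the largest difference, at 8.18 and 8.50 on the knockout arrays, against 8.88 and 9.13 on the control arrays, or -0.67 (limma adjusted p = 0.0645). The differences of the list ran between -0.67 and 0.36. The Piwi gene Piwil4 lay within the background range on all 4 arrays.

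Among 23 other meiosis genes none passed (limma, 3 with an unadjusted p under 0.05, against 23.9% of all genes), with a median difference of -0.02, and 9 lay within the background range on all 4 arrays. The largest difference was that of Meioc, which sustains meiotic prophase, at 4.87 and 5.22 on the knockout arrays, against 5.51 and 6.24 on the control arrays, or -0.83 (limma adjusted p = 0.0938). In this list 7 of 23 genes were lower in both knockout arrays, a share close to the 29.2% of all genes, and 1 was higher, against 23.1% of all genes.

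Genes of spermatogonia and later male germ cells gave no call among 21 measured (limma, 2 with an unadjusted p under 0.05, against 23.9% of all genes, median difference 0.06). Of them 12, including the protamine gene Prm2 and the transition protein genes Tnp1 and Tnp2, lay within the background range on all 4 arrays. The largest difference in this list was that of Gfra1, a receptor subunit for GDNF on spermatogonial stem cells, at 5.65 and 5.63 on the knockout arrays, against 6.30 and 6.18 on the control arrays, or -0.60 (limma adjusted p = 0.0524). Oocyte genes gave none among 11 (limma, 1 with an unadjusted p under 0.05, against 23.9% of all genes, median difference -0.01). Gdf9, an oocyte growth factor, had the largest difference of 0.39 (limma adjusted p = 0.166), and 5 of the 11 lay within the background range on all 4 arrays.

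Repressors known to silence germ line genes in ES cells, which include the Max, Mga and E2f6 complex, histone methyltransferases and DNA methyltransferases, were all above background. By the brightest probe set of each gene none of 19 passed (limma, 7 with an unadjusted p under 0.05, against 23.9% of all genes). By the same probe sets 7 were lower in both knockout arrays and 4 higher, against 29.2% and 23.1% of all genes, and the median difference was -0.13. Ehmt2, the H3K9 methyltransferase G9a, had the largest difference among these probe sets, at 9.69 and 9.71 on the knockout arrays, against 8.74 and 9.15 on the control arrays, or 0.75 (limma adjusted p = 0.0538). Dimmer probe sets, named after their values were seen, differed by 1.59 for Dnmt3b, 1.39 for Dnmt3a and 1.17 for Uhrf1, against -0.28, -0.26 and -0.20 for the brightest of these genes. None of these 3 dimmer sets passed when tested singly (limma adjusted p = 0.0556, 0.111 and 0.0520). The other dimmer sets of Dnmt3a differed by -0.09, -0.35 and -0.56. Dimmer sets differed by -0.05 to 0.76 for Mga and by 0.54 for Trim28, against -0.22 and -0.06 for the brightest. No direction is given for any of these genes.

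**Figure D3:**
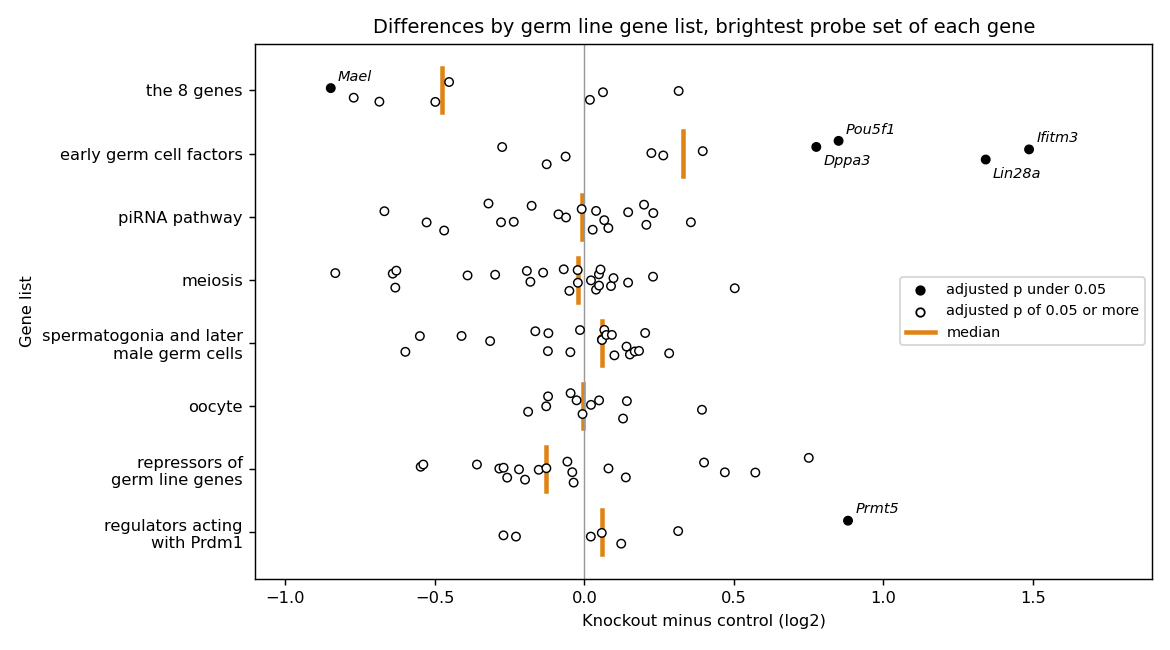
Knockout minus control (log2, horizontal axis) for every measured gene of the 8 and of the 7 germ line lists, 1 circle per gene, with orange lines for list medians and filled circles for genes past an adjusted p of 0.05. The 8 genes have a median of -0.48, with Dazl at its brighter probe set. Early germ cell factors have 4 filled circles to the right of 0, and the piRNA, meiosis, later male germ cell, oocyte and repressor lists have none.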

How the data were processed

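The authors deposited 1 log2 value for each probe set on each array. The submitters' processing notes name RMA (background correction, quantile normalization between arrays and probe set summary) and limma, without versions and with settings not given in the sources used here. Quantile normalization makes the arrays' distributions alike, so a change common to most genes would not show. The values were used as deposited. Probe sets were named through the platform annotation of 2016, and gene IDs were looked up in RefSeq GRCm38.p6, which held 34741 of the 34945 used and changed 0 symbols. Probe sets with several genes or none, and Affymetrix controls, were left out of the fit. For a gene with several probe sets, the brightest (highest mean over the 4 arrays) was taken. Knockout and control were grouped by the sample titles and compared with limma 3.58.1 in R 4.3.3 (lmFit and eBayes, two-sided, Benjamini-Hochberg over 18193 genes, threshold 0.05), and the fit was checked on simulated data. The members and lists were chosen with earlier results of these data known. All 8 members were named whatever their values, as were up to 3 genes per list with the largest difference past the threshold, or the 1 with the largest difference where none passed, and the 3 genes nearest in pattern to a member past the threshold. Of 173 list entries, 10 were not measured. Alternatives changed the probe set rule, the eBayes prior, the normalization, the filter on dim genes, the gene span trend (loess, span 0.3), the replicate block and the arrays used.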

Additional observations from a re-analysis of the deposited data

How the results depend on the processing

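Over 14 alternatives Prdm1, Ddx4, Mael and Piwil2 stayed lower in the knockout in each, and Mael passed the threshold in 8. Both knockout arrays of these genes lay below both control arrays, so leaving out 1 array could not turn the sign. Of the rest, only further quantile normalization, median centring and the gene span trend changed these differences. The constant sign is therefore weak evidence of stability. Dazl is counted here by its brighter probe set, except where both were averaged (-0.08, SE 0.13). Of the 8 members, 0 passed when a gene's probe sets were averaged and 0 with every probe set tested singly. Under the filter that keeps means of at least 6, where 5 were tested, 2 passed (Mael and Piwil2). With the replicate block 4 passed, all lower: Mael, the brighter probe set of Dazl (limma adjusted p = 0.0101), Piwil2 (0.0106) and Ddx4 (0.0459). Over all 18193 genes 3092 passed with this block, 1200 higher and 1892 lower. Of the 110 list genes, where 5 passed, 3 passed with probe sets averaged and 2 tested singly. At a mean of 6 or more 8 (7 higher, 1 lower) of the 53 tested passed, against 1224 of 9484 over all genes. With the replicate block 19 of the 110 passed (8 higher, 11 lower), against 3092 of 18193 over all genes. Among the 19 repressors, where none passed, 1 or 2 rose under 5 alternatives (further quantile normalization, median centring, both filters on dim genes and the gene span trend), and 3 rose and 2 fell with the replicate block. Among feeder markers 1 fell under each filter (13 tested at a mean of 6 or more, 16 above background on 2 arrays) and 7 of 17 with the replicate block. Over all genes 699 of 9484 fell at a mean of 6 or more and 524 of 12524 above background on 2 arrays. With the block 1892 of 18193 fell. The labels give both groups replicate numbers 1 and 2 without saying what a number marks, so the main fit did not take the numbers as pairs. Deviations of same-numbered arrays nevertheless correlated at 0.29 over genes. The main fit counts any spread shared by number as error. Whether same-numbered arrays were handled together was not tested. Leaving out 1 array turned the sign of Sycp3 (range -0.12 to 0.75) and of Tdrd1 (-0.0030 to 0.13) and Tex101 (-0.11 to 0.15), both within background. Over all 18193 genes 754 passed (360 higher, 394 lower), against 864 (527 higher, 337 lower) after a further quantile normalization. The count was 321 with probe sets averaged, 118 of the brightest probe sets tested singly and 481 with an intensity trend. It was 1224 of 9484 at a mean of 6 or more and 3092 with the replicate block. The cause of these shifts was not tested. Values inside the background range carry no order.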
